A study of Danio rerio with 7 samples.

Results

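The 10 transcripts described here encode proteins that recognise the ends of an intron at the start of splicing. They are the specific proteins of the U1 snRNP (SNRNP70, SNRPA and SNRPC), the U1-associated LUC7 proteins (LUC7L and LUC7L3), the U2AF heterodimer (U2AF1 and 2 genes called U2AF2) and the U2AF-related factor PUF60 (puf60a and PUF60). They were chosen by name, with earlier results of these data known, from 32105 rows of a count table. All 10 listed zebrafish symbols found a row. The table of symbols gives no paralog letter for U2AF2, so the listed u2af2a and u2af2b stand for ENSDARG00000012505 and ENSDARG00000011740 without saying which is which, and the row called PUF60 (ENSDARG00000001241) was taken for puf60b. All 10 passed the filter on low counts, as did 18565 rows in all.

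The study sequenced polyadenylated RNA of erythroid cells isolated as gata1-positive from zebrafish embryos aged 40 hours post fertilization. The groups were 4 libraries of sibling embryos (replicates 1, 3, 4 and 5) and 3 libraries of ddx41 mutant embryos (replicates 2, 3 and 4), where ddx41 encodes a DEAD-box RNA helicase. The labels name neither the ddx41 allele nor the genotypes among the siblings, and are silent on whether each library had its own clutch of embryos, so the p-values rest on the spread among libraries that may be technical. Transcripts of ddx41 itself were not analysed here, which leaves the genotype labels without a check on the targeted gene.

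Splicing begins when the U1 snRNP pairs with the 5′ splice site while U2AF binds the 3′ splice site and SF1 the branch point. U2AF2 (U2AF65) binds the polypyrimidine tract, U2AF1 (U2AF35) reads the terminal AG, and together they help to bring in the U2 snRNP. In humans, U2AF1 is recurrently mutated in myelodysplastic syndromes, as are the U2 protein gene SF3B1 and DDX41 itself, and germline DDX41 variants predispose to myeloid neoplasms.

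Total counts ran from 11814324 to 14363255 per library, and the 10 members together held 3050 to 6788 of them, so a single member rested on 81 to 2436 counts. Erythroid markers were abundant in both groups: gata1a averaged 652.4 CPM in siblings and 464.1 CPM in mutants. The 14 tested erythroid rows held 86991 to 120981 CPM in siblings and 44631 to 92470 CPM in mutants. Of these rows 3 had a log2 fold change above 0, and the median was -0.39. The 1 row called lower, hbae3, averaged 46136 CPM in siblings and 22950 CPM in mutants. The 1 called higher, SLC4A1 (ENSDARG00000024560, 1 of 2 rows with that symbol), averaged 51.8 and 195.4 CPM. The other SLC4A1 row (ENSDARG00000012881) had far more counts, averaged 10997 CPM in siblings and 7970 CPM in mutants, and was not called (edgeR adjusted p = 0.203). Markers of other cells were also present. The 13 tested macrophage rows summed to 799.0 to 1574 CPM in siblings and 403.0 to 757.6 CPM in mutants (5 lower, 1 higher). Several of these rows share the symbol MFAP4, and 1 of them (ENSDARG00000088745, lower) averaged 395.2 CPM in siblings and 68.0 CPM in mutants. The 5 neutrophil rows summed to 1863 to 3349 CPM in siblings and 1913 to 3533 CPM in mutants (1 higher). The 11 skeletal muscle rows summed to 61.1 to 123.4 and 49.1 to 54.3 CPM (6 lower), the 7 endothelial rows to 39.3 to 69.2 and 94.8 to 193.1 CPM (2 higher), and the 11 neural rows to 76.3 to 294.4 CPM in mutants and 126.7 to 254.5 CPM in siblings (2 lower). By the same test, described below, 8.87% of all tested genes were higher and 7.69% lower in mutants. No matched marker was at a count of 0 in every library. Some listed markers matched no row: hbbe1.1 and hbbe2 (erythroid), mpeg1.1 and lgals3bpb (macrophage), and mpx and cpa5 (neutrophil). The same held for pecam1 (endothelial), mylpfa, mylz3 and tnni2a.4 (skeletal muscle) and nova2 (neural). Matched but not tested were cd74a, MFAP4 (ENSDARG00000038681) and FABP7 (ENSDARG00000034650). The sums are thus of part of each list. The part of these cells in the results that follow was not tested, and in bulk RNA a change in the share of a cell type and a change in RNA per cell cannot be told apart.

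The comparison of mutants with siblings asks how transcripts for splice-site recognition differ between red-lineage cells of ddx41 mutant embryos and those of siblings. Of the 10 members 2 rose, none fell and 8 did not pass edgeR's quasi-likelihood test with Benjamini-Hochberg adjustment at 0.05 over all tested genes. LUC7L rose 4.72-fold and one U2AF2 gene (ENSDARG00000012505) rose 1.71-fold. With a single library left out, the count of risen members dropped to 1 (sibling replicate 5 or ddx41 mutant replicate 2) or grew to 5 (ddx41 mutant replicate 4). Of all 18565 tested genes, 16.6% passed that test, 8.87% as higher and 7.69% as lower in mutants. LUC7L was the 1 member that rose by at least 2-fold, as 6.58% of all tested genes did. All 10 fitted log2 fold changes were above 0, from 0.10 for PUF60 to 2.24 for LUC7L, with a median of 0.66, where the median of all tested genes was 0.04 and 52.0% of them were above 0. At an unadjusted p under 0.05, 7 of the 10 were higher, against 15.9% of all tested genes. Sibling and mutant values were fully separate at 3 members, each higher in mutants (LUC7L, ENSDARG00000012505 and puf60a), a pattern seen at 14.6% of the genes tested. The members were chosen with earlier results of these data known, so these counts are no independent test of them.

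**Figure D1:**
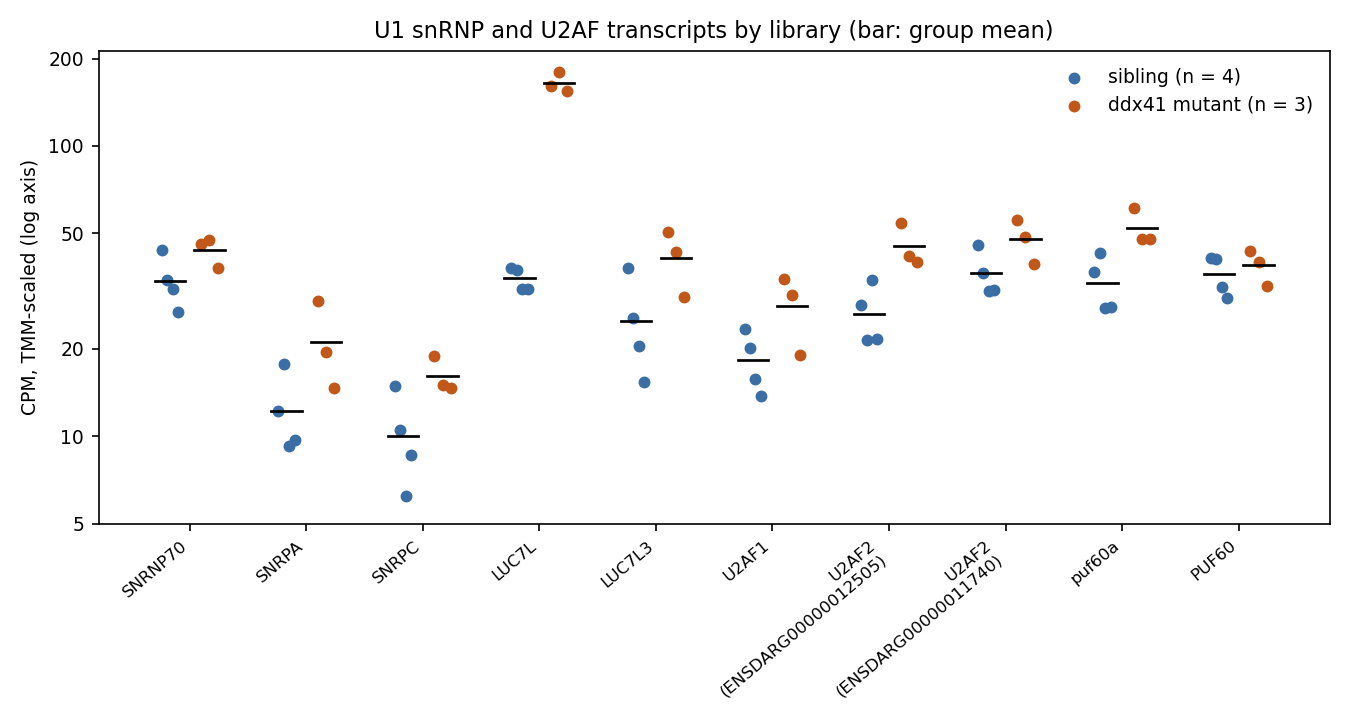
Counts scaled to library size (CPM, with TMM factors) on a log axis for the 10 transcripts, with 4 sibling and 3 ddx41 mutant libraries as points (in replicate order from left to right within each group) and group means as bars. LUC7L stands at 154.6 to 179.8 CPM in mutants against 32.2 to 37.9 CPM in siblings, while the groups overlap or lie close together at the other members.

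Of the U1 snRNP proteins, SNRNP70 (U1-70K) binds stem-loop I of U1 snRNA and is a contact for SR proteins. SNRNP70 measured 43.8, 34.6, 32.2 and 26.8 CPM in sibling replicates 1, 3, 4 and 5 and 46.0, 47.4 and 38.0 CPM in ddx41 mutant replicates 2, 3 and 4. Sibling replicate 1 lay above ddx41 mutant replicate 4, so the groups overlapped. The fitted log2 fold change of SNRNP70 was 0.35 ± 0.21 (SE), with a 95% interval of -0.10 to 0.79 and an edgeR adjusted p of 0.288.

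SNRPA, the A protein of U1, binds stem-loop II of U1 snRNA. SNRPA measured 12.3, 17.7, 9.28 and 9.71 CPM in the siblings and 29.2, 19.5 and 14.7 CPM in the mutants, where only ddx41 mutant replicate 4 fell inside the sibling range. Its log2 fold change was 0.78 ± 0.30 (SE, 95% interval 0.15 to 1.42), and the edgeR adjusted p was 0.0897. The value passed without sibling replicate 3 (log2 fold change 0.9996, adjusted p = 0.0494) or without ddx41 mutant replicate 4 (0.99, adjusted p = 0.0401).

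SNRPC, the C protein of U1, is a zinc finger protein that stabilises the pairing of U1 snRNA with the 5′ splice site. It was the least counted member, with 81 to 215 counts in siblings and 196 to 230 counts in mutants. SNRPC averaged 10.05 ± 3.66 CPM in siblings and 16.2 ± 2.32 CPM in mutants (SD, n = 4 and 3), and sibling replicate 1 at 14.9 CPM lay above the lowest mutant library at 14.6 CPM. The log2 fold change was 0.68 ± 0.30 (SE), with an edgeR adjusted p of 0.142. None of the 3 transcripts of U1 snRNP proteins passed the test. Their single-gene intervals run up to log2 fold changes of 0.79, 1.42 and 1.33, so rises of that size are not excluded by these libraries.

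The LUC7 proteins are relatives of yeast Luc7, a U1 snRNP component that affects the choice of 5′ splice sites, and in humans different LUC7 proteins favour different classes of 5′ splice site. LUC7L (ENSDARG00000055903) measured 37.9, 37.5, 32.2 and 32.2 CPM in sibling replicates 1, 3, 4 and 5. In ddx41 mutant replicates 2, 3 and 4 LUC7L measured 160.8, 179.8 and 154.6 CPM. The siblings lay within a narrow band, and the lowest mutant library stood far above it.

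The group means of LUC7L were 34.96 ± 3.19 CPM for siblings and 165.1 ± 13.1 CPM for mutants (SD, n = 4 and 3). The log2 fold change was 2.24 ± 0.18 (SE), with an edgeR adjusted p of 1.14e-06 and rank 35 by p among 18565 genes, and 1.87% of tested genes had a larger log2 fold change. LUC7L passed under every alternative run, with log2 fold changes from 2.13 to 2.31.

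LUC7L3, the relative with a long tail rich in arginine and serine, measured 38.0, 25.6, 20.5 and 15.4 CPM in the siblings and 50.3, 43.2 and 30.1 CPM in the mutants. Here sibling replicate 1 exceeded ddx41 mutant replicate 4, and each group spread widely. The log2 fold change of LUC7L3 was 0.73 ± 0.28 (SE, 95% interval 0.13 to 1.33; edgeR adjusted p = 0.0943). LUC7L3 passed without sibling replicate 1 (log2 fold change 1.01, adjusted p = 0.0252) or ddx41 mutant replicate 4 (0.91, adjusted p = 0.0451).

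The fitted log2 fold change was larger for LUC7L than for LUC7L3, which did not pass its own test. The ratio of these 2 LUC7 transcripts differed between the groups before adjustment but did not pass after it. LUC7L3 made up 50.05%, 40.5%, 38.9% and 32.4% of the summed LUC7L3 and LUC7L counts in the siblings, and 23.8%, 19.4% and 16.3% in the mutants. The mean log2 ratio of LUC7L3 to LUC7L was -0.57 ± 0.44 in siblings and -2.03 ± 0.34 in mutants (SD, n = 4 and 3), and the groups did not overlap. The two-sided exact permutation p was 0.0286, which is the smallest possible with 35 splits, and it was 0.0714 after Benjamini-Hochberg adjustment over the 5 ratios tested. From that floor a ratio could pass after adjustment only if most of the 5 ratios reached it too. The adjusted value thus depends on the other ratios and is no measure of this ratio alone.

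**Figure D2:**
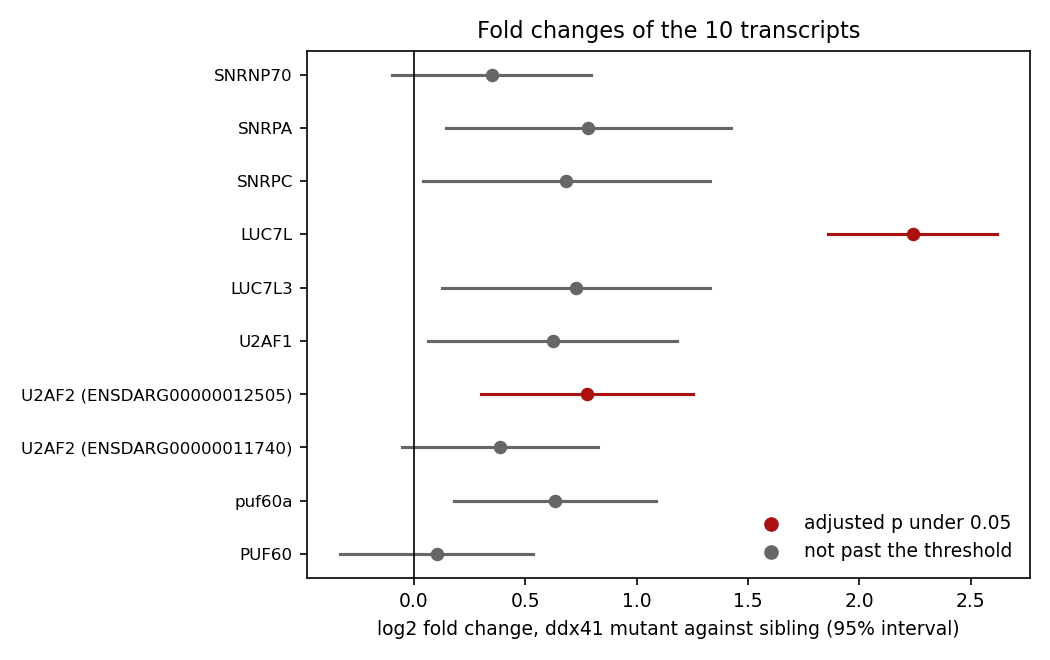
Fitted log2 fold changes of the 10 transcripts in ddx41 mutants against siblings, with 95% intervals for each gene alone as lines and calls at an adjusted p under 0.05 in red. LUC7L at 2.24 stands apart from the others, which lie between 0.10 and 0.78.

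U2AF1, the small subunit, measured 23.3, 20.15, 15.8 and 13.7 CPM in sibling replicates 1, 3, 4 and 5 and 34.8, 30.6 and 19.0 CPM in ddx41 mutant replicates 2, 3 and 4. Mutant replicates 2 and 3 lay above all siblings, and replicate 4 lay among them. The log2 fold change of U2AF1 was 0.62 ± 0.26 (SE, 95% interval 0.06 to 1.18; edgeR adjusted p = 0.122), and without ddx41 mutant replicate 4 it was 0.84 (adjusted p = 0.0366).

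The large subunit is represented by 2 genes called U2AF2, whose reads the counting may have divided between them. The ENSDARG00000012505 gene measured 28.2, 21.5, 34.5 and 21.6 CPM in the siblings and 54.2, 41.9 and 39.9 CPM in the mutants. Its highest sibling, replicate 4, lay below the lowest mutant library. The log2 fold change was 0.78 ± 0.22 (SE, 95% interval 0.30 to 1.25), with an edgeR adjusted p of 0.0272. This call was lost without sibling replicate 1, 3 or 5 (adjusted p = 0.0509, 0.0899 and 0.0808) and without ddx41 mutant replicate 2 (0.146).

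The ENSDARG00000011740 gene measured 45.6, 36.5, 31.7 and 31.9 CPM in the siblings and 55.4, 48.4 and 39.1 CPM in the mutants, and the groups overlapped. Its log2 fold change was 0.39 ± 0.21 (SE), with a 95% interval of -0.06 to 0.83 and an edgeR adjusted p of 0.230. The ENSDARG00000011740 gene took 61.8%, 63.0%, 47.9% and 59.7% of the summed counts of both genes in the siblings and 50.5%, 53.6% and 49.5% in the mutants. The mean log2 ratio of the 2 genes was 0.40 lower in mutants, but sibling replicate 4 lay below all mutants, and the exact permutation p was 0.171 (two-sided; 0.25 after adjustment over 5 ratios).

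The balance of the subunit transcripts was alike in its means, within a wide spread. The log2 ratio of U2AF1 counts to the summed counts of both U2AF2 genes averaged -1.80 ± 0.25 in siblings and -1.76 ± 0.26 in mutants (SD, n = 4 and 3), and an exact two-sided permutation test gave p = 0.829 (0.829 after adjustment over the 5 ratios). The sign of this small difference turned when either of sibling replicates 4 and 5 or either of ddx41 mutant replicates 2 and 3 was left out. The corresponding ratio of SNRNP70 to SNRPC was 1.82 ± 0.37 in siblings and 1.44 ± 0.19 in mutants (SD, n = 4 and 3), and the exact permutation p was 0.2 (two-sided; 0.25 after adjustment).

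PUF60 proteins bind polypyrimidine tracts and can act together with U2AF. The puf60a gene measured 36.9, 42.6, 27.5 and 27.8 CPM in the siblings and 61.2, 47.9 and 47.9 CPM in the mutants. All mutant libraries lay above all siblings. The log2 fold change of puf60a was 0.63 ± 0.21 (SE, 95% interval 0.18 to 1.09), just short of the threshold (edgeR adjusted p = 0.0545), and puf60a passed with library totals alone (adjusted p = 0.0340), with limma-voom (0.0477) and without sibling replicate 3 (0.0489).

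PUF60 (ENSDARG00000001241) measured 41.0, 40.9, 32.8 and 29.9 CPM in the siblings and 43.5, 39.9 and 33.004 CPM in the mutants. The groups overlapped nearly fully, with a log2 fold change of 0.10 ± 0.20 (SE), a 95% interval of -0.33 to 0.53 and an edgeR adjusted p of 0.784. The puf60a gene took 47.4%, 51.0%, 45.7% and 48.2% of the summed counts of both genes in the siblings and 58.4%, 54.5% and 59.2% in the mutants. The mean log2 ratio of puf60a to PUF60 was -0.11 ± 0.13 in siblings and 0.43 ± 0.15 in mutants (SD, n = 4 and 3). The groups did not overlap, and the two-sided exact permutation test gave p = 0.0286, again the smallest possible with 35 splits, and 0.0714 after adjustment over 5 ratios. The limit of the adjustment given for the LUC7 ratio holds here too.

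**Figure D3:**
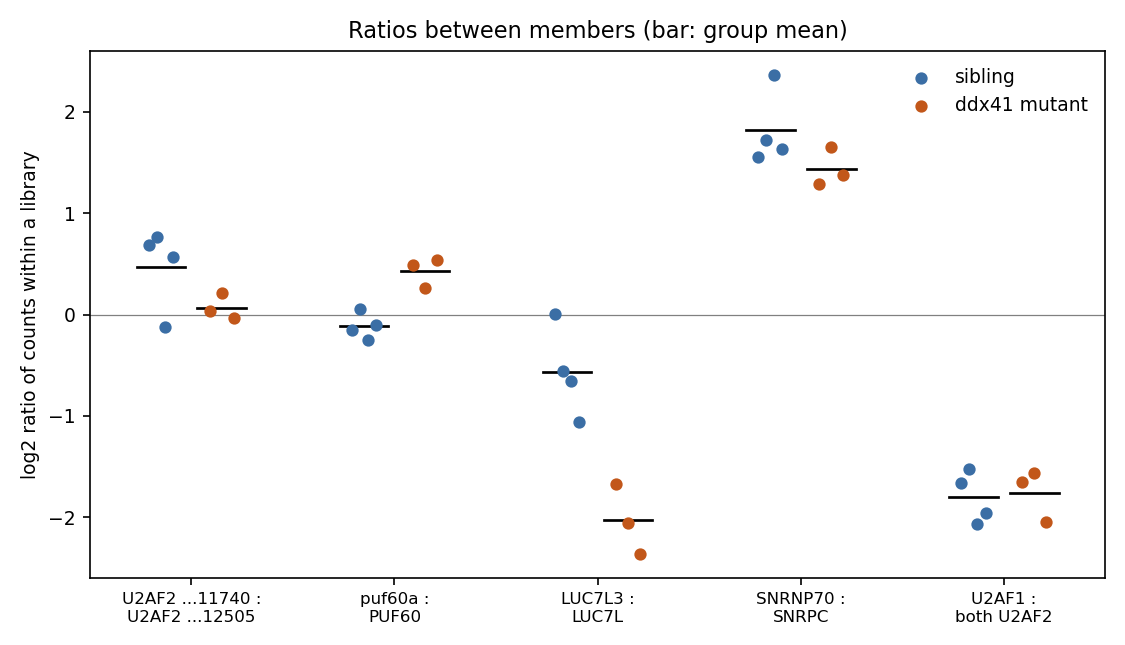
Log2 ratios of the counts of paired members within each library, which do not depend on library scaling, for siblings and ddx41 mutants with group means as bars; the first pair names the U2AF2 genes by the last digits of their IDs. The groups separate for puf60a to PUF60 (higher in mutants) and for LUC7L3 to LUC7L (lower in mutants) and overlap for the other 3 ratios.

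The libraries of a group kept a similar order over the members. Sibling replicate 1 was the highest sibling at 7 of 10 members, and sibling replicates 4 and 5 were the lowest at 4 and 5 members. Among mutants, replicate 2 was the highest at 8 and replicate 4 the lowest at all 10. These are levels scaled with TMM factors, and ddx41 mutant replicate 4 had the largest factor of all libraries, which lowers all its levels. The order was not counted with library totals alone, so how far it rests on the scaling was not tested. This order was not counted over all tested genes, so it is not shown to be particular to the members. Outside them, mutant replicate 4 was also the lowest mutant at PRPF39, SRSF1 (ENSDARG00000017843), SNRPD2, SNRPD3 (ENSDARG00000013800), SNRPG, SF3A2, SF3A3, HTATSF1 and SMNDC1. It was not the lowest at tial1, RBM39 and RBM17. The summed level of the 9 members other than LUC7L, which was set aside after its values were seen, was 284.1, 250.1, 210.5 and 185.5 CPM in sibling replicates 1, 3, 4 and 5 and 393.4, 333.9 and 276.2 CPM in ddx41 mutant replicates 2, 3 and 4. Without LUC7L the lowest mutant sum thus lay below the highest sibling sum on the TMM scaling, and the sums were not compared with library totals alone.

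By likeness of log2 CPM over the 7 libraries, among 10445 genes with a symbol and a mean of at least 5 CPM, the genes closest to LUC7L were SF3B2, CCNT2 (ENSDARG00000036685) and snapc4, each with Pearson's r of 0.998. SF3B2 encodes a U2 snRNP protein, CCNT2 a cyclin of the elongation factor P-TEFb, and snapc4 a subunit of the complex that binds snRNA gene promoters. They were 3.02-fold, 5.87-fold and 19.6-fold higher in mutants. This is a description of 7 points that fall into the study's 2 groups, and 326 genes had an r above 0.95.

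The transcripts of the Sm core, the ring of proteins shared by U1, U2, U4 and U5, had larger fitted fold changes than SNRNP70, SNRPA and SNRPC. That difference was not itself tested, and the lists were chosen with earlier results of these data known. All 8 Sm rows rose, each at least 2-fold, as 6.58% of all tested genes did. Their log2 fold changes ran from 1.90 to 3.74 around a median of 2.79. After SNRPD2 (log2 fold change 3.74), the largest rises were SNRPD3 (ENSDARG00000013800, 1 of 2 rows with that symbol), from 6.38 ± 2.67 CPM to 69.3 ± 27.9 CPM, and SNRPG, from 34.02 ± 7.86 CPM to 348.9 ± 79.9 CPM (SD, n = 4 and 3). The edgeR adjusted p values of the 3 genes were 4.4e-08, 7.25e-06 and 3.05e-07. The summed Sm level was 146.2 to 209.0 CPM in siblings and 1098 to 1648 CPM in mutants, while SNRNP70, SNRPA and SNRPC together summed to 45.2 to 71.0 CPM in siblings and 67.2 to 94.0 CPM in mutants.

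Most of the transcripts listed for the U2 snRNP, which U2AF helps to recruit, also rose. Of 14 rows 11 rose and none fell, 9 of the rises were at least 2-fold, and the median log2 fold change was 1.60. Among all tested genes 8.87% rose, and 6.58% rose at least 2-fold. HTATSF1, which binds the U2 protein SF3B1, rose 8.11-fold, SF3A2 rose 6.33-fold and SF3A3 rose 5.62-fold (edgeR adjusted p = 1.43e-07, 5.74e-07 and 1.82e-06). SNRPB2, SF3B5 and DDX46 did not pass, with log2 fold changes of 0.48, 0.64 and 0.42. SNRPB2 is the U2 relative of SNRPA, and the log2 ratio of SNRPA to SNRPB2, computed after the values were seen and not tested, was -0.34 ± 0.24 in siblings and -0.05 ± 0.60 in mutants (SD, n = 4 and 3).

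**Figure D4:**
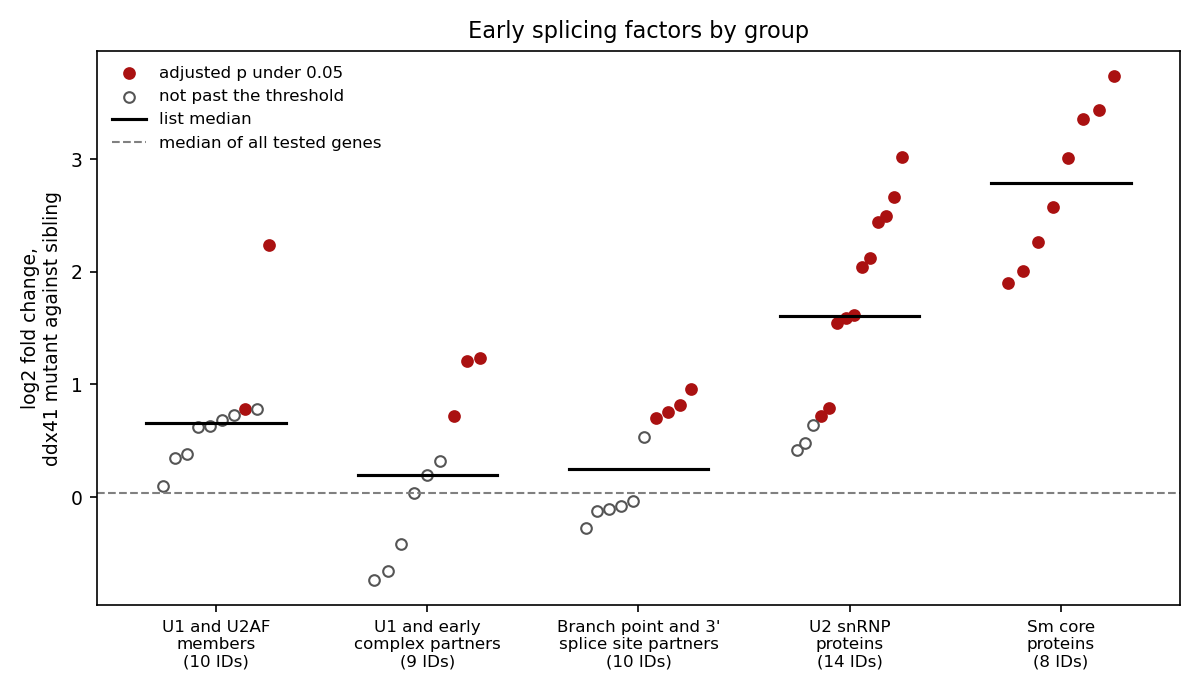
Log2 fold changes in ddx41 mutants against siblings for the 10 U1 and U2AF members and for 4 other lists of early splicing factors, 1 point per gene row, red where the adjusted p was under 0.05, with list medians as bars and the median of all tested genes (0.04) as a dashed line. The medians are 0.66 for the members, 0.20 for U1 and early complex partners, 0.25 for branch point and 3′ splice site partners, 1.60 for U2 snRNP proteins and 2.79 for Sm core proteins. The lists were picked with earlier results of these data in view.

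Transcripts of proteins that bind next to U1 or act with it at the 5′ splice site rose at 3 of 9 rows, and 6 did not pass. The share of all tested genes that rose was 8.87%. The symbols luc7l2, a further LUC7 gene, and prpf40b were also listed but matched no row, so they have no value here. The list's median log2 fold change was 0.20. The gene tial1, whose product binds U-rich sequence downstream of 5′ splice sites, rose from 22.2 ± 5.29 to 52.1 ± 3.42 CPM (SD, n = 4 and 3). The SR protein gene SRSF1 (ENSDARG00000017843, 1 of 2 rows with that symbol) rose from 12.7 ± 3.33 to 29.3 ± 6.11 CPM. The edgeR adjusted p was 0.00148 for tial1 and 0.00558 for this SRSF1 row. The other SRSF1 row (ENSDARG00000057691) had more counts and did not pass. It averaged 74.9 ± 5.87 CPM in siblings and 85.9 ± 14.3 CPM in mutants (edgeR adjusted p = 0.519). PRPF39, a relative of a yeast U1 protein, rose from 40.1 ± 3.29 to 65.9 ± 9.47 CPM (edgeR adjusted p = 0.0156), a call lost on leaving out sibling replicate 5 (adjusted p = 0.0584), ddx41 mutant replicate 2 (0.0591) or ddx41 mutant replicate 3 (0.0695). In the main edgeR test 0 rows fell, and 2 were lower at an unadjusted p under 0.05. Of these, tcerg1a was named after its values were seen. It averaged 33.1 ± 7.38 CPM in siblings and 21.0 ± 1.43 CPM in mutants (edgeR adjusted p = 0.0604). DESeq2 called it lower (adjusted p = 0.0348). So did edgeR with upper-quartile factors (0.0442), with at least 1 CPM in every library of a group (0.0429) and without sibling replicate 5 (0.0403).

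Transcripts of U2AF partners at the branch point and 3′ splice site rose at 4 of 10 rows and fell at none, where 8.87% of all tested genes rose. The list's median log2 fold change was 0.25, with no rise of 2-fold or more. RBM17 and RBM39, which carry U2AF homology motifs, rose 1.95-fold and 1.68-fold, SMNDC1, a Tudor domain splicing factor, rose 1.76-fold, and rbm39b rose 1.62-fold (edgeR adjusted p = 0.0265, 0.0112, 0.0145 and 0.0277). Left-out libraries ended the calls of RBM17 (adjusted p up to 0.153), RBM39 (0.0505 without sibling replicate 5) and SMNDC1 (0.0817 without ddx41 mutant replicate 2). The rbm39b call ended on leaving out sibling replicate 1, 3 or 5 (adjusted p = 0.0814, 0.0912 and 0.0584) and likewise ddx41 mutant replicate 2 or 3 (0.0806 and 0.0770). Over the list, 1 row rose without either sibling replicate 5 or ddx41 mutant replicate 2, and 2 rows rose once sibling replicate 3 was left out. SF1, the branch point binding protein that pairs with U2AF2, averaged 160.2 ± 28.9 CPM in siblings and 132.0 ± 31.8 CPM in mutants (SD, n = 4 and 3; edgeR adjusted p = 0.414). ZRSR2, a U2AF1 relative needed for the minor spliceosome, averaged 17.6 ± 2.47 and 17.2 ± 1.74 CPM (adjusted p = 0.941).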

How the data were processed

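The authors deposited 1 table of raw counts by Ensembl gene ID, with a column for each of 7 libraries and 0 columns of other samples. Per the submitters' processing notes, STAR 2.4.2a, Cufflinks 2.2.1, DESeq2, Picard and Trim Galore were used, with the build GRCz10. Not given in the sources used here are the counter, its strand setting and the annotation, so overlapping, antisense and near-identical genes may share reads. Gene IDs were paired with symbols through a lookup table, in which 26269 of 32105 rows had one. Transcript lengths were not used here. A ratio, share or sum of counts over different genes is thus no measure of their relative transcript numbers, and serves only to compare libraries and groups.

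The test used edgeR 4.0.16 in R 4.3.3: filterByExpr by group (minimum count 10, total 15), TMM scaling and the quasi-likelihood F-test on all 7 libraries with no block, Benjamini-Hochberg adjusted over 18565 genes at 0.05. Each SE is the fitted log2 fold change over the root of F. Ratios are log2 of counts plus 0.5, tested by exact permutation. Alternatives used limma 3.58.1 and DESeq2 1.42.0 among others. Named genes were all members, up to 3 called genes per direction of each other list, and the 3 genes most like the member with the smallest p; further genes (SNRPB2, SF3B5, DDX46, rbm39b, tcerg1a, SF1 and ZRSR2) were named after their values were seen. Members and lists were chosen with earlier results of these data known. One gene of the lists is not reported here. The edgeR steps were also run on simulated data with fewer changed genes than were called here, and the outcome of that run is not given. No library repeated another of its group (chi-square over degrees of freedom at least 17.5).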

Additional observations from a re-analysis of the deposited data

Results flagged for a closer look

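Among the sibling values of the members, of the 5 ratios and of the other named splicing genes, 27 sets of 4 libraries were examined for a library far from the rest. HTATSF1 stood out in sibling replicate 4, at 21.5 CPM against 16.2 to 17.1 CPM in the other siblings, while the mutants lay between 128.9 and 165.4 CPM. Chance gives such a gap in about 1 in 20 sets.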

How the results depend on the processing

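LUC7L kept its direction and its call under all 16 alternatives, and SNRNP70, SNRPC, PUF60 and the ENSDARG00000011740 gene passed under none. Replicate numbers 3 and 4 occur in both groups, but nothing says that they pair the libraries, and the deviations of same-numbered libraries correlated at -0.02 and -0.18. A block on the replicate number leaves little residual freedom, and only the libraries numbered 3 and 4 then bear on the group difference. Sibling replicates 1 and 5 and ddx41 mutant replicate 2 thus add nothing to it. With this block the ENSDARG00000012505 gene did not pass in edgeR (log2 fold change 0.59, adjusted p = 0.488), and PUF60 was at -0.0124. The numbers that rose with it were 1 member, 1 U1 partner, 0 branch point partners and 592 of all genes (431 fell). The puf60a log2 fold change passed at 0.71 with library totals and 0.65 with limma-voom. Upper-quartile factors, the stricter filter and DESeq2 each gave 1 U1 partner that fell. With single libraries left out, log2 fold changes ran from 0.48 to 0.9996 for SNRPA, 0.54 to 1.01 for LUC7L3, 0.44 to 0.84 for U2AF1, 0.63 to 0.91 for the ENSDARG00000012505 gene and 0.50 to 0.75 for puf60a. The number of members that rose ran from 1 (without sibling replicate 5 or ddx41 mutant replicate 2) to 5 (without ddx41 mutant replicate 4), of branch point partners from 1 to 5, of U1 partners that fell from 0 to 1 (without sibling replicate 5), and of all genes from 1014 to 1471 higher and 874 to 1487 lower, lowest without ddx41 mutant replicate 2. The ZRSR2 log2 fold change turned to 0.0539 with library totals and ran from -0.115 to 0.0274 with single libraries left out. All 8 Sm rows rose under each alternative, and 9 to 11 U2 rows did. The U2AF1 to U2AF2 log2 ratio difference ran from -0.0501 to 0.194. Leaving out a library leaves too few splits for a ratio to reach 0.05, so those are values without a test. Members outside LUC7L had 81 to 754 counts per library. How far depth and the spread between libraries each set the width of the intervals was not tested.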
